A study of Mus musculus with 20 samples.

Results

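Markers of Müller glia were followed across the dissected layers of the mouse retina, in 10 genes: Glul, Rlbp1, Aqp4, Clu, Car14, Dkk3, Vim, Gfap, Apoe and Abca8a. They were taken by name, as the probe sets whose only gene symbol in the platform annotation is one of these 10, which gave 11 of 35557 probe sets on the array, 2 for Glul and 1 for each other gene. All 10 genes passed the filter on dim probe sets, a log2 intensity over 5 on at least 2 arrays, and are 10 of 15057 genes tested. The RNA came from adult C57BL/6 mice of 7 to 8 weeks that were dark adapted for 3 h in a chamber of at most 0.4 lux, or light adapted for 6 h under 450 lux. The labels name no transgene or other treatment. In each state laser capture microdissection gave 4 layers, the photoreceptor layer (outer nuclear layer with inner and outer segments), then the inner nuclear, inner plexiform and ganglion cell layers. Samples of whole retina make up a further tissue. This gives 10 groups of 2 arrays, 20 in all. The labels tie no array to an animal or a pool of animals, so the p-values measure the spread between these samples, which may be technical. In dissected tissue, fewer glial cells or processes in the cut and less RNA per cell cannot be told apart.

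Müller glia are the radial glial cells of the retina. Their cell bodies lie in the inner nuclear layer, and their processes run outward between the photoreceptors and inward through the inner plexiform layer to endfeet at the vitreal surface, so that every layer holds some part of them. They take up glutamate and turn it into glutamine, carry potassium, bicarbonate and water, supply lipoproteins, and bind and recycle retinoids for cones. After injury they enter gliosis, in which the intermediate filament genes Gfap and Vim are raised. Gfap is also made by the astrocytes of the nerve fibre layer and Rlbp1 by the retinal pigment epithelium.

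Upstream sequence is shown for Rlbp1, Abca8a and Vim, the 3 genes with a difference over 1 on the log2 scale between dark and light in the inner plexiform layer, as the 250 bases before the annotated start of each gene in RefSeq (build GRCm38.p6), 5′ to 3′ on the gene's strand. The capitals mark matches to 7 short motifs, searched on both strands. They were the SOX motif in its 2 forms ACAAAG and ACAATG, the OTX and CRX motif TAATCC, and the homeodomain motif TAATTA. The others were the STAT palindrome TTCNNNGAA, the TATA box TATAAA and the GC box GGGCGG.
Rlbp1: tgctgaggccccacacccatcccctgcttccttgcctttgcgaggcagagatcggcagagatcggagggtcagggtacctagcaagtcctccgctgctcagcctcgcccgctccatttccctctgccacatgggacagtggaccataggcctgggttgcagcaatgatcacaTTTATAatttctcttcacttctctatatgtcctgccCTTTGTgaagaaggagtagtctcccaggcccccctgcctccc
Abca8a: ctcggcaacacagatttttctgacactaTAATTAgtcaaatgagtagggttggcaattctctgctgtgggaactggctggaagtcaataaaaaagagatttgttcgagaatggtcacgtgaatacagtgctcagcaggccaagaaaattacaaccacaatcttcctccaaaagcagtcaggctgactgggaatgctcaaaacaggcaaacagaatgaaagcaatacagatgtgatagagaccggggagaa
Vim: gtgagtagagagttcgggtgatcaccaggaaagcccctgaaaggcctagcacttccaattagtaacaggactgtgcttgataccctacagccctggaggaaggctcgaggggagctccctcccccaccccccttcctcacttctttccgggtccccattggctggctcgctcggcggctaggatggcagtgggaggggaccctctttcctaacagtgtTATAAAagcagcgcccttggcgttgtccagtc
The Rlbp1 window is chr7:79387028-79387277 on the minus strand. It holds a SOX match on the opposite strand that begins 42 bases before the start, as 16.5% of 32851 windows of the same length hold one, and a TATA match on the opposite strand at 78 bases (12.4% of windows). The Abca8a window is chr11:110095938-110096187 on the minus strand and holds a homeodomain match at 222 bases (4.84% of windows). The Vim window is chr2:13574061-13574310 on the plus strand and holds a TATA match at 32 bases. No motif was found in all 3 windows, and each match is a description of the letters only. RefSeq windows were used for 7 of the 10 genes, and not for Aqp4, Clu and Dkk3. Windows on a single chromosome were left out before this count, so a gene without a window here may still have one in RefSeq.

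Median intensities ran between 37.5 and 40.8 over the arrays. Replicates of a group correlated across genes at 0.851 to 0.956. The light-adapted inner plexiform layer arrays stood apart from the other dissected arrays, with median correlations of 0.738 and 0.768 with the arrays of other groups, so layer comparisons are also given without them where a call changes. The dark-against-light results of that layer cannot be made without them. Signal of Y-linked probe sets was present in 5 arrays, all light adapted (both of the ganglion cell layer, and 1 each of whole retina, photoreceptor and inner nuclear layer), and in no inner plexiform layer array. The mice's sexes are not given in the labels, and comparisons of layers are also given without those 5 arrays where a call changes. As a stand-in for background, the 95th percentile of the chemosensory receptor probe sets was taken on each array, at intensities of 62.5 to 98.2. Glul and Apoe lay above it on all 20 arrays, Dkk3 on 19, Clu on 17, Car14 on 12, Rlbp1 on 10, Abca8a on 6 and Vim on 3. The 10 arrays of Rlbp1 were the 4 of the inner nuclear layer, the 2 of dark-adapted inner plexiform layer and the 4 of whole retina. Those of Abca8a were the 4 of whole retina and 1 each of inner nuclear and inner plexiform layer in dark, and those of Vim were 3 of whole retina and none of a dissected layer. Aqp4, the water channel of Müller endfeet, and Gfap lay above it on 0 of 20 arrays, so their values carry little signal and a difference in them may not be detectable here.

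Across layers, most of the markers were lower in the photoreceptor layer, and Rlbp1 and Abca8a were higher in the inner nuclear layer, where the cell bodies of Müller glia lie. Set against the other 3 layers' mean (4 arrays against 12), 8 of 10 genes were lower in the photoreceptor layer at an adjusted p under 0.05 in limma, where 5.69% of all genes were. The median difference of the 10 was -0.88 on the log2 scale, beside -0.06 over all genes. In the inner nuclear layer 2 of 10 were higher (0.252% of all genes), in the inner plexiform layer 2 were higher (8.29% of all genes), and in the ganglion cell layer 1 was lower (0.704% of all genes). The calls in the photoreceptor layer lay in the lower direction alone and those in the inner plexiform layer in the higher one, while 7.26% and 5.29% of all genes were called the opposite way there. Aqp4 and Gfap passed in none of these comparisons. Of 5 bipolar cell markers 4 were also higher in the inner nuclear layer, and the part of its cell makeup in these differences was not tested.

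**Figure D1:**
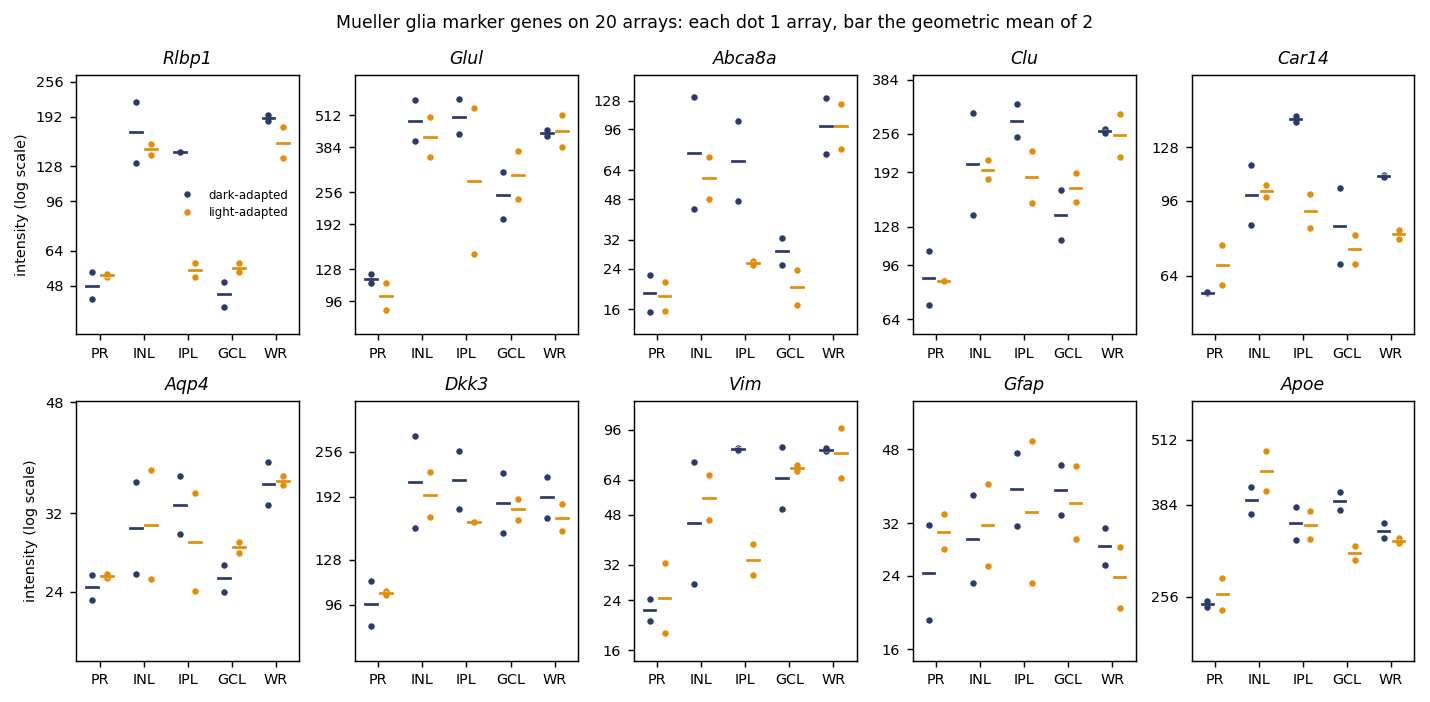
Intensities of the 10 Müller glia marker genes on a log axis, one panel a gene, with each of the 20 arrays as a dot and the geometric mean of a group as a bar, dark left of light in each tissue (PR photoreceptor, INL inner nuclear, IPL inner plexiform, GCL ganglion cell layer, WR whole retina). Rlbp1 is at 144.2 and 144.1 on the dark-adapted inner plexiform layer arrays and at 51.4 and 57.8 on the light-adapted ones.

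Rlbp1 encodes the cellular retinaldehyde-binding protein, which holds 11-cis retinoids in Müller glia. Its intensity was 131.5 and 217.3 in dark-adapted and 140.4 and 154.1 in light-adapted inner nuclear layer, against 53.5 and 42.9 in dark-adapted and 51.6 and 52.8 in light-adapted photoreceptor layer. The ganglion cell layer was as low as the photoreceptor layer, with 49.6 and 40.2 in dark and 53.5 and 58 in light. All 4 inner nuclear layer arrays lay above all 8 arrays of those layers, and the inner plexiform layer lay between, at the inner nuclear level in dark and near the low layers in light.

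Rlbp1 was higher in the inner nuclear layer than in the mean of the others by 1.38 ± 0.13 on the log2 scale (standard error of the fit), and lower in the photoreceptor layer by a difference of -0.83 ± 0.13 and in the ganglion cell layer by one of -0.83 ± 0.13 (adjusted p = 0.0028). In the paired comparisons the inner nuclear layer was above the ganglion cell layer by 1.66 ± 0.16 (0.166% of all genes higher) and above the inner plexiform layer by 0.83 ± 0.16 (adjusted p = 0.01, 1.62% of all genes higher). The inner plexiform layer was in turn above the ganglion cell layer by 0.83 ± 0.16 (adjusted p = 0.016, 1.81% of all genes higher), and the photoreceptor and ganglion cell layers, with means of 5.64 and 5.64, had an adjusted p of 1. The inner nuclear layer exceeded the inner plexiform layer by 0.23 ± 0.23 within the dark-adapted arrays (adjusted p = 0.91) and by 1.43 ± 0.23 within the light-adapted ones (adjusted p = 0.0029), and by 0.13 with both inner plexiform layer arrays in light left out (adjusted p = 0.90). The inner plexiform and ganglion cell layers differed by 1.69 ± 0.23 in dark (adjusted p = 0.0061) and by -0.03 ± 0.23 in light (adjusted p = 0.95). Without the 5 arrays with Y-linked signal the 2 inner plexiform pairs were 0.86 (adjusted p = 0.06) and 0.99 (adjusted p = 0.097), and the ganglion cell layer's difference from the mean of the others was -1.01 with adjusted p = 0.059. The photoreceptor and ganglion cell layer values lie below the background line, so the sizes of these differences rest in part on values near background.

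Glul encodes glutamine synthetase, which turns glutamate and ammonia into glutamine. Its brightest probe set read 112.6 and 122.7 in dark-adapted and 112.8 and 88.9 in light-adapted photoreceptor layer, against 405 and 590.1 (dark) and 353 and 506.1 (light) in the inner nuclear layer. In the ganglion cell layer it read 201.4 and 307.3 in dark and 241.8 and 372.1 in light. All 4 photoreceptor layer arrays lay below every array of the other 3 layers. The difference of the photoreceptor layer was -1.73 ± 0.25, the largest of the 10 genes in size, and the order of layer means on the log2 scale was inner nuclear (8.83), inner plexiform (8.56), ganglion cell (8.09) and photoreceptor (6.76). Of the neighbouring steps in that order only the last passed (1.33 ± 0.30, adjusted p = 0.0098). The inner nuclear layer's own difference, 1.02 ± 0.25, had adjusted p = 0.081. It passed with the mean of both probe sets (1.33, adjusted p = 0.023), without both inner plexiform layer arrays in light (0.88, adjusted p = 0.049), and without replicate 1 or 2 of them alone (0.86 with adjusted p = 0.03, and 1.18 with adjusted p = 0.005). Without the first of those the inner plexiform layer passed too, at 1.15 with adjusted p = 0.0035. The second Glul probe set had 37 and 74.9 in dark-adapted and 27.4 and 47 in light-adapted photoreceptor layer, with the other layers at 95.1 to 794.3, so both probe sets had all their lowest arrays in that layer.

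Abca8a encodes a member of the lipid-transporting A family of ABC transporters. It read 43.5 and 132.7 in dark-adapted and 48.2 and 73 in light-adapted inner nuclear layer, against 15.6 and 22.6 in dark-adapted and 21 and 15.8 in light-adapted photoreceptor layer. The ganglion cell layer had 32.5 and 25 in dark and 23.8 and 16.7 in light, so all 4 inner nuclear layer arrays lay above both, with a wide gap between the 2 dark-adapted replicates. The inner nuclear layer was higher by 1.34 ± 0.27 (adjusted p = 0.032) and the photoreceptor layer lower, at -1.14 ± 0.27 (adjusted p = 0.009). Of the 16 arrays of dissected layers 2 were above the background line, so these sizes rest on values near background. The first call ended without replicate 1 or 2 of the light-adapted inner nuclear layer (adjusted p = 0.1 and 0.22), replicate 2 of the inner nuclear layer (0.15) or of the ganglion cell layer (0.052) in dark, and, like the second (0.067 each), without replicate 1 of the dark-adapted or replicate 2 of the light-adapted photoreceptor layer (0.068 each). Without both light-adapted inner plexiform layer arrays the inner nuclear difference was 1.10 with adjusted p = 0.17, and without the arrays with Y-linked signal it was 1.44 with adjusted p = 0.2.

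Clu encodes clusterin, a secreted chaperone and apolipoprotein, and Apoe the main apolipoprotein that Müller glia release. Clu read 250.5 and 318.9 in dark-adapted and 153.1 and 224.4 in light-adapted inner plexiform layer, against 139.8 and 298.8 (dark) and 182.2 and 210.7 (light) in the inner nuclear layer. Its photoreceptor layer arrays, 106.7 and 71.5 in dark and 85.7 and 85.3 in light, were all below those of every other layer. Clu was lower in the photoreceptor layer, at -1.15 ± 0.18, and higher in the inner plexiform layer, at 0.72 ± 0.18 (adjusted p = 0.016). The second call ended without replicate 2 of the dark-adapted (adjusted p = 0.066) or of the light-adapted inner plexiform layer (0.58, adjusted p = 0.08), and without both light-adapted arrays (1.03, adjusted p = 0.1).

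Apoe had the closest replicates of the 10, with a pooled standard deviation of 0.11 on the log2 scale. It read 245 and 251.1 in dark-adapted and 278.2 and 241.4 in light-adapted photoreceptor layer, against 369.5 and 415.4 (dark) and 408.1 and 486.2 (light) in the inner nuclear layer. Those arrays did not overlap. The photoreceptor layer was lower by a difference of -0.55 ± 0.10, and the inner nuclear layer's 0.41 ± 0.10 had adjusted p = 0.079.

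Car14 encodes a membrane carbonic anhydrase that faces the extracellular space. It read 151.8 and 146.8 in dark-adapted and 82.7 and 99.5 in light-adapted inner plexiform layer, against 58.3 and 58.5 (dark) and 60.8 and 75.4 (light) in the photoreceptor layer. The inner plexiform layer arrays were all above the photoreceptor layer arrays, and the light-adapted ones overlapped those of the inner nuclear layer. Car14 was higher in the inner plexiform layer by 0.56 ± 0.13 (adjusted p = 0.01) and lower in the photoreceptor layer, at -0.63 ± 0.13. Without the arrays with Y-linked signal these were 0.51 with adjusted p = 0.057 and -0.57 with adjusted p = 0.07. Aqp4 lay between 23.3 and 38.6 on all 20 arrays, with differences of -0.23 in the photoreceptor layer and 0.18 in the inner plexiform layer that did not pass.

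Dkk3 encodes a secreted protein of the Dickkopf family. It read 83.8 and 111.8 in dark-adapted and 104.7 and 101.9 in light-adapted photoreceptor layer, against 152.1 to 284.2 over the other 3 layers. Its photoreceptor layer difference was -0.93 ± 0.16 and no step among the other layers passed.

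Vim encodes vimentin, the intermediate filament of Müller glia, and Gfap the filament protein raised in gliosis. Vim read 50.2 and 83.3 in dark-adapted and 68.8 and 72 in light-adapted ganglion cell layer, against 24.3 and 20.3 (dark) and 18.4 and 32.6 (light) in the photoreceptor layer. All 16 arrays of dissected layers were below the background line, and the sizes that follow rest on such values. The photoreceptor layer was lower, at -1.27 ± 0.22, and the ganglion cell layer's 0.78 ± 0.22 had adjusted p = 0.10, which was 0.017 (0.90) without replicate 2 of the dark-adapted inner nuclear layer. Gfap read 44.1 and 33.4 in dark and 43.7 and 29.3 in light in the ganglion cell layer, against 31.6 and 18.8 (dark) and 33.6 and 27.7 (light) in the photoreceptor layer. These overlap.

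**Figure D2:**
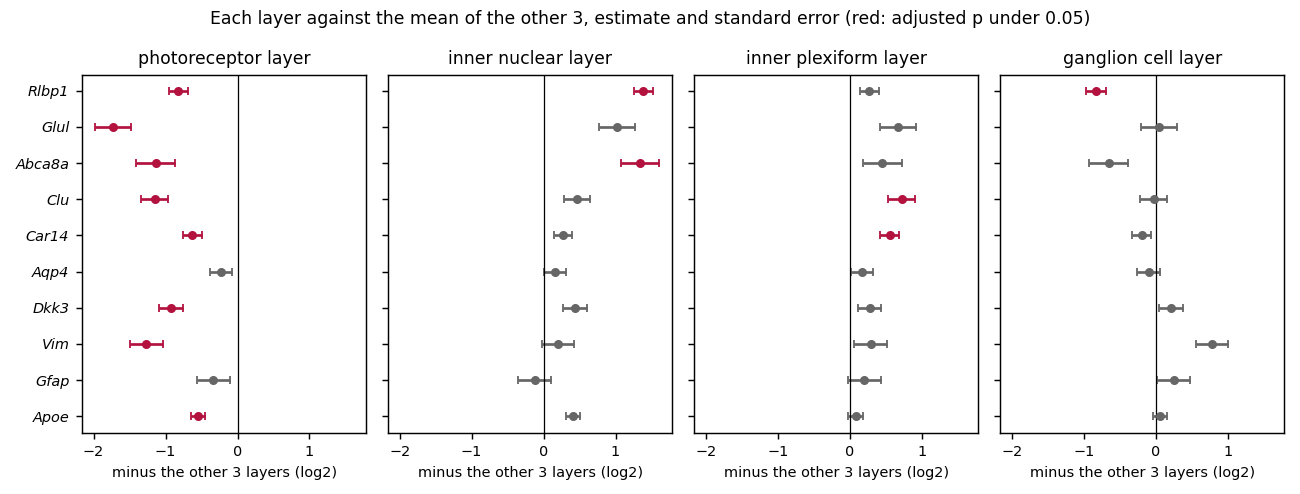
Differences of each layer from the other 3 layers' mean for the 10 genes, as log2 differences with their standard errors (4 arrays against 12). Red marks an adjusted p under 0.05, and the photoreceptor layer values run to -1.73 for Glul and lie under 0 for all 10 genes.

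Pair by pair, 8 of 10 genes were lower in the photoreceptor than in the inner nuclear layer (1.26% of all genes), 8 lower than in the inner plexiform layer (11.7% of all genes), and 5 lower than in the ganglion cell layer (3.09% of all genes), namely Glul, Clu, Dkk3, Vim and Apoe. For 7 of 10 all 4 photoreceptor layer arrays lay below all 4 inner nuclear layer arrays (6.18% of all genes). Over the 6 pairs of layers 24 of 60 gene-by-pair comparisons passed, all but 3 of them against the photoreceptor layer, and those 3 were Rlbp1. Without the 5 arrays with Y-linked signal 14 passed. The 10 calls that ended had adjusted p from 0.054 to 0.36. They were those of the photoreceptor layer against the ganglion cell layer (all 5), the inner nuclear layer (Car14 and Vim) and the inner plexiform layer (Vim), and those of Rlbp1 between the inner plexiform layer and its neighbours on either side. With both inner plexiform layer arrays in light left out 22 passed, and the calls that ended were that of Rlbp1 between inner nuclear and inner plexiform layer and that of Apoe between photoreceptor and inner plexiform layer (-0.48, adjusted p = 0.067). Within the dark-adapted arrays 14 passed and within the light-adapted arrays 8. The share of all genes was not counted in these fits or in those with arrays left out. A change in these counts is therefore not a result about the markers.

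Other Müller glia genes did not all share this order. Of 33 measured members of a list of 36 further Müller glia genes, 7 were lower (5.69% of all genes) and 4 higher (7.26% of all genes) in the photoreceptor layer (median -0.32). The lower ones included the transcription factor Nfix (-0.78 ± 0.17), the G protein subunit Gnai2 (-0.56 ± 0.14) and the potassium channel Kcnj10 (-0.47 ± 0.15, adjusted p = 0.047). The higher ones were the monocarboxylate transporter Slc16a1 (1.83 ± 0.27), the glutamine transporter Slc38a3 (1.04 ± 0.23), the homeobox gene Rax (0.75 ± 0.19) and Acsl6 (0.49 ± 0.14), an acyl-CoA synthetase. The rod arrestin Sag was at 2.33 ± 0.27 in the same layer, and the part of rods in these differences was not tested. None of the 33 passed in the inner nuclear layer. In the inner plexiform layer the Notch target Hes1 (0.71 ± 0.16) and Nfix (0.65 ± 0.17) were higher and Slc16a1 lower (-0.86 ± 0.27), where 8.29% of all genes were higher and 5.29% lower. Of 9 measured genes of the dystrophin complex, which anchors Aqp4 at endfeet, Dmd (1.73 ± 0.22) and Sntb2 (0.73 ± 0.21) were higher in the photoreceptor layer and Utrn (-0.65 ± 0.18) and Dtna (-0.46 ± 0.13) lower. The part of rods in these was not tested either. Of 10 lipid transport genes, 4 were higher there, led by the lipoprotein receptor Vldlr (1.13 ± 0.16), and 2 lower, Lrp1 (-0.57 ± 0.11) and Abca8b (-0.72 ± 0.21). Of 19 gliosis and injury genes 1 was lower, the cytokine receptor Osmr (-0.53 ± 0.16).

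In the inner plexiform layer, Rlbp1 was higher in dark than in light, and no other of the 10 genes passed in the fit without a replicate block. The 2 dark-adapted arrays read 144.2 and 144.1, against 51.4 and 57.8 on the light-adapted arrays. The dark-adapted values lay inside the range of the inner nuclear layer arrays (131.5 to 217.3) and the light-adapted ones inside that of the photoreceptor and ganglion cell layer arrays (40.2 to 58). The difference was 1.40 ± 0.23 on the log2 scale (adjusted p = 0.011, limma, 2 arrays against 2). The dark-adapted arrays were above their background lines of 86.7 and 84 and the light-adapted arrays below theirs of 85.9 and 81.9, so the size rests on values near background. By p it was the 17th and by upward size the 119th of 15057 genes. Of the 10 genes 1 was called higher, where 0.717% of all genes were higher and 1.12% lower. The call ended when replicate 2 in dark was left out (1.40, adjusted p = 0.078) and when replicate 1 in light was (1.32, adjusted p = 0.054). With only the 4 arrays of this comparison in the fit the adjusted p was 0.22.

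The other 9 genes had differences of 0.01 to 1.46, all above 0, but none passed. Abca8a read 47.2 and 104.7 in dark, against 26 and 25 in light, a difference of 1.46 ± 0.47 (adjusted p = 0.11). Vim read 82.8 and 81.6 in dark, against 29.4 and 37.9 in light, a difference of 1.30 ± 0.39 (adjusted p = 0.091). In both genes both dark-adapted arrays were above both light-adapted ones. Of these values the 104.7 of Abca8a alone lay above the background line, and the sizes are limited by that. Vim passed without replicate 1 or without replicate 2 of the dark-adapted inner nuclear layer (adjusted p = 0.046 each), arrays that are not in this comparison but in the shared estimate of spread. With the replicate number as a block in the limma fit, Vim (adjusted p = 0.022) and Abca8a (adjusted p = 0.044) passed as well. The labels do not say what that number stands for. Same-numbered arrays deviated together, at correlations of 0.006 to 0.479 over all 45 pairs of groups, so they may share a factor.

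Car14 read 151.8 and 146.8 in dark, against 82.7 and 99.5 in light, a difference of 0.72 ± 0.22 (adjusted p = 0.10). Clu read 250.5 and 318.9, against 153.1 and 224.4, a difference of 0.61 ± 0.32 (adjusted p = 0.32), and Dkk3 177.5 and 257.4, against 162.9 and 163.4, one of 0.39 ± 0.28 (adjusted p = 0.50). The dark-adapted arrays of these genes also lay above the light-adapted ones. For 6 of the 10 genes the groups did not overlap in this direction, where 18.3% of all genes did the same.

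Glul depended on 1 array. It read 431.6 and 591.8 in dark, against 146.2 and 548.5 in light, so that the groups overlap, with a difference of 0.84 ± 0.43 (adjusted p = 0.31). With replicate 2 in light left out it was 1.79 (adjusted p = 0.02), and with replicate 1 in light left out it was -0.12 (adjusted p = 0.91). The second Glul probe set read 408.3 and 474.7 in dark, against 134.5 and 298.3 in light, and did not overlap. Apoe read 329 and 380.5 in dark, against 373.2 and 330 in light, a difference of 0.01 ± 0.17, with the smallest standard error of the 10. The gliosis marker Gfap read 47.1 and 31.5 in dark, against 50.1 and 23 in light (0.18 ± 0.40), and Aqp4 29.6 and 36.6, against 24.1 and 34.4 (0.19 ± 0.27), both near background.

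As a group, 4 of the 10 had an unadjusted p under 0.05 in this layer, all higher in dark, where 7.78% of all genes did so in that direction. Their median difference was 0.66, beside -0.03 over all genes, and 47.4% of all genes were above 0. The 10 genes share the same 4 arrays, and the light-adapted 2 stand apart over all genes as described above; the part of that in these differences was not tested.

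**Figure D3:**
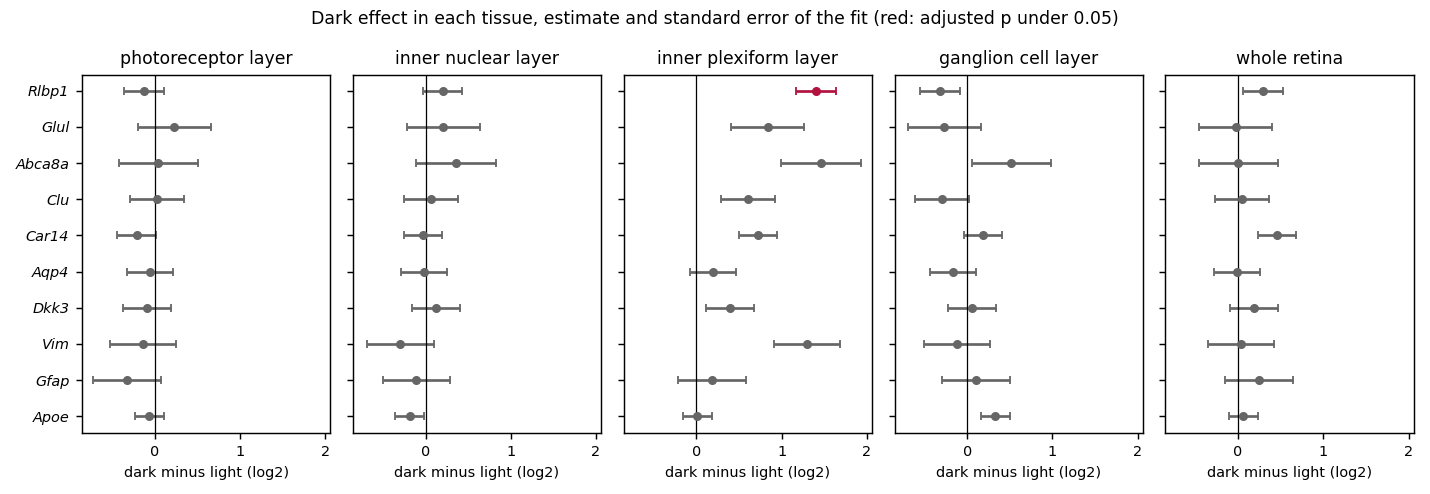
Dark minus light for the 10 genes in each of the 5 tissues, as log2 differences with their standard errors (2 arrays against 2). In the inner plexiform layer Abca8a (1.46), Rlbp1 (1.40, red for an adjusted p under 0.05) and Vim (1.30) lie highest, and in the other tissues no gene is beyond 0.52.

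In the other tissues the 10 genes showed no called difference between dark and light. In each of them some or all light-adapted arrays, and no dark-adapted ones, had Y-linked signal, so the states also differ in that. In each of the other 3 layers and in whole retina 0 of 10 passed in limma, with differences of -0.32 to 0.52. Few genes passed there at all, 0.0465% for photoreceptor, 0% for inner nuclear and 0.00664% for ganglion cell layer, and 0.0266% for whole retina. None of the 10 had an unadjusted p under 0.05 either, where 1.49%, 3.14%, 4.08% and 0.897% of all genes did in the same order of tissues. The differences of Rlbp1 were -0.12 (photoreceptor), 0.20 (inner nuclear), -0.32 (ganglion cell) and 0.29 (whole retina), each ± 0.23. In the whole retina it read 194.5 and 185.7 in dark, against 175.9 and 137.2 in light. The difference did not pass there. Averaged over the 5 tissues (10 arrays against 10), 0 of 10 passed (0.0133% of all genes). At an unadjusted p under 0.05 there were 3 (6.11% of all genes in either direction), which were Rlbp1 (0.29 ± 0.10), Abca8a (0.48 ± 0.21) and Car14 (0.22 ± 0.10). That mean includes the inner plexiform layer, where their differences were 1.40, 1.46 and 0.72. It is therefore not separate from the result of that layer.

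The dark effect of Rlbp1 in the inner plexiform layer was tested against the mean of its effects in the other 3 layers. It was larger by 1.48 ± 0.27 (adjusted p = 0.039), the only call among the 10, where 0.093% of all genes were higher. The adjusted p was 0.016 to 0.14 when each array was left out in turn, and the call ended in 12 of 20 such fits, among them those without replicate 2 of the dark-adapted inner plexiform layer (1.48, 0.14) and without replicate 1 of the light-adapted one (1.40, 0.11). With only the arrays of the 4 layers it was 0.068. In the other 3 layers some or all light-adapted arrays had Y-linked signal, and no dark-adapted array did. The inner plexiform layer had none in either state. Without those arrays the interaction has no value, so the part of this difference in it was not tested. Vim had an interaction of the same size, 1.49 ± 0.45 (adjusted p = 0.17), then Abca8a with 1.16 ± 0.54, Glul with 0.78 ± 0.50, Car14 with 0.74 ± 0.26 and Clu with 0.68 ± 0.37. When tissues were set against each other pair by pair, in 10 pairs, no gene of the 10 passed. The nearest was Rlbp1 in the inner plexiform against the ganglion cell layer, at 1.72 ± 0.33 (adjusted p = 0.079, 0.0133% of all genes called).

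The place of the inner plexiform layer among the layers was also taken in each state apart. Within the dark-adapted arrays (2 against 6) its differences were 1.02 ± 0.19 for Rlbp1 (adjusted p = 0.054), 0.93 ± 0.18 for Car14 (adjusted p = 0.064), 1.06 ± 0.26 for Clu, 1.06 ± 0.35 for Glul, 1.03 ± 0.32 for Vim and 1.03 ± 0.38 for Abca8a. None passed in limma (0.0199% of all genes higher), and 6 had an unadjusted p under 0.05 (5.92% of all genes higher). Within the light-adapted arrays the differences were -0.47 ± 0.19 for Rlbp1 (adjusted p = 0.10), -0.45 ± 0.32 for Vim and -0.13 ± 0.38 for Abca8a, with 0 of 10 called (15.7% of all genes in either direction) and 1 with an unadjusted p under 0.05 (30.9% of all genes). These contrasts share their arrays with the dark-minus-light comparison. Without both inner plexiform layer arrays in light, the layer's difference from the others over all arrays was 0.98 for Rlbp1 (adjusted p = 0.047), which had not passed with them (0.28 ± 0.13).

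Among the 33 further Müller glia genes, 1 was higher in dark in the inner plexiform layer, where 0.717% of all genes were higher and 1.12% lower. This was Kcnj10, the inward rectifier through which Müller glia carry potassium, which read 73.4 and 79.9 in dark, against 27.4 and 46.2 in light (1.11 ± 0.26, adjusted p = 0.042). The groups did not overlap, as in 18.3% of all genes in this direction. The interaction of Kcnj10 with the other layers (1.08 ± 0.30) had adjusted p = 0.14. The median over the 33 was 0.21. Of 13 glutamate and ammonia genes 1 was lower (1.12% of all genes), the glutamate transporter Slc1a1, which is found mainly on neurons. It read 19.9 and 37 in dark, against 289.9 and 301.2 in light (-3.45 ± 0.24, adjusted p = 7.4e-07), and in the whole retina its difference was 2.02 ± 0.24 the other way (adjusted p = 0.0011). None of 19 gliosis genes passed (median -0.01), the brightest being Socs3 (-0.64 ± 0.25, adjusted p = 0.18) and Tnfrsf12a (-0.15 ± 0.22). None of 9 dystrophin complex genes passed, with Dmd at 0.26 ± 0.38 and Dtnb at 0.21 ± 0.23. None of 10 lipid transport genes did, with Vldlr at 0.65 ± 0.28 (adjusted p = 0.21) and Lrp1 at 0.27 ± 0.19.

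Markers of other cell types in the same cuts are given beside this result. The summed intensity of 5 bipolar markers (Trpm1, Grm6, Prkca, Pcp2, Cabp5) was 671.3 and 776.8 in dark-adapted inner plexiform layer, against 557.1 and 619 in light-adapted (median difference 0.54, 0 of 5 called). That of 5 amacrine markers was 530.8 and 889.6 in dark, against 548.2 and 540 in light (0 of 5 called). So the bipolar sum was higher on both dark-adapted arrays and the amacrine sum on 1 of them. The ganglion cell sum was 715.7 and 882.3 in dark, against 456.9 and 862.7 in light, with 1 of 7 called higher (0.717% of all genes). That gene was Thy1, a surface glycoprotein of ganglion cells, at 21.5 and 24.6 in dark, against 7.1 and 7.2 in light. The light-adapted values are under the floor of 8, so its fitted 1.52 ± 0.22 (adjusted p = 0.0054) depends on that floor. Rod markers were at 851 and 588.6 in dark, against 746.1 and 766.3 in light, and astrocyte markers at 184.6 and 198.8, against 153 and 213.4. Vascular markers were at 385.3 and 525.2 in dark, against 315.4 and 401.8 in light, microglial ones at 248.3 and 198.3, against 159 and 201.1, and pigment epithelium ones, a cell type that also makes Rlbp1, at 112.7 and 102.9, against 147.7 and 124.7. The last sum was lower on both dark-adapted arrays. None of these lists had a defining marker called besides Thy1, and their part in the result for Rlbp1 was not tested.

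**Figure D4:**
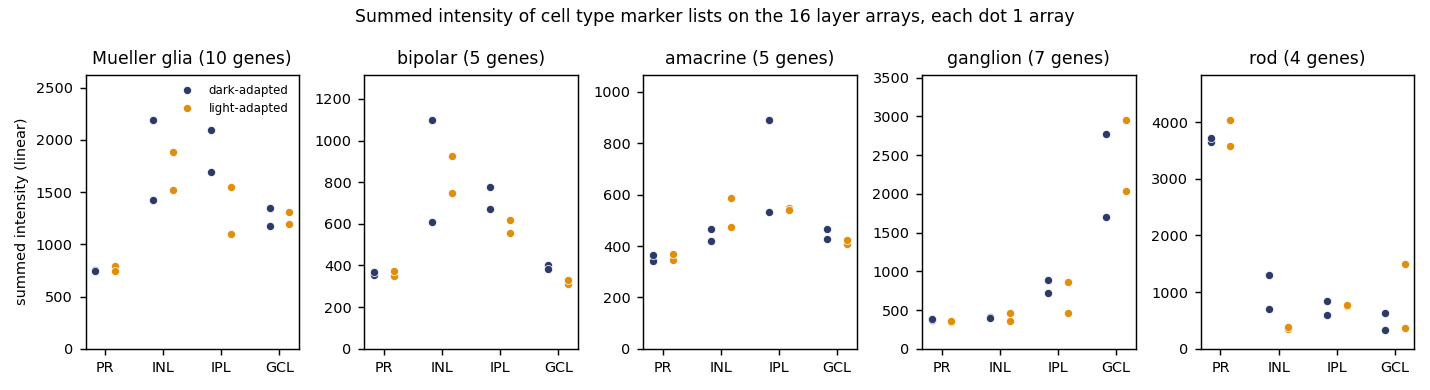
Summed linear intensities of 5 marker lists on each of the 16 arrays of dissected layers (PR photoreceptor, INL inner nuclear, IPL inner plexiform, GCL ganglion cell layer), each dot 1 array, dark left of light. In the inner plexiform layer the Müller glia sum is 1691.3 and 2093.9 in dark, against 1099.1 and 1543.9 in light, and the bipolar sum 671.3 and 776.8, against 557.1 and 619.

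The whole retina holds whole Müller glia together with the other cells of the retina. In it 5 of 10 genes were higher than the mean of the 4 dissected layers (19.9% of all genes). They were Abca8a (1.57 ± 0.26), Rlbp1 (1.16 ± 0.13), Vim (0.84 ± 0.22), Glul (0.73 ± 0.24) and Clu (0.71 ± 0.18). The median of all 10 was 0.53, while the median of all genes in this comparison was -0.18, so the shift relative to all genes is larger by that much. Some markers of neurons were higher there too, such as Pde6b (2.22 ± 0.26) and Trpm1 (1.23 ± 0.14), and Pou4f1 was lower (-0.66 ± 0.23). Further Müller glia genes went both ways, with Rdh10 higher (0.96 ± 0.12) and Hes5 lower (-0.65 ± 0.14). The rise was thus not particular to the 10 genes. Abca8a read 75.1 and 131.6 in dark-adapted and 79.3 and 123.9 in light-adapted whole retina, which overlaps the inner nuclear layer. Glul lost its call without replicate 2 of the light-adapted whole retina (0.62, adjusted p = 0.12) or either dark-adapted array (0.74 with adjusted p = 0.059, and 0.71 with adjusted p = 0.073), and Vim without the first of these (0.69, adjusted p = 0.057).

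The 10 genes followed each other to different degrees. Over the 10 group means, which share arrays and normalisation, the closest pairs were Glul and Clu (r = 0.964), Rlbp1 and Abca8a (0.957) and Glul and Dkk3 (0.938). Gfap followed the rest least, with a median r of 0.168 with the other 9. Among 2223 other genes whose group means varied by a standard deviation of at least 0.5, the genes most like Rlbp1 were Tcf4 (0.985), Gpr37 (0.974) and Zfp804b (0.973). Gpr37, a receptor known from glia, read 106 and 163.6 in dark, against 70 and 63 in light, in the inner plexiform layer, a difference of 0.99 ± 0.41 that did not pass (adjusted p = 0.20). Most like Glul were Cadps (0.936), Gucy1a1 (0.922) and Zmiz1 (0.918), and most like Clu were Zmiz1 (0.965), Spc25 (0.939) and Dab1 (0.937). Most like Car14 were the amacrine marker Tfap2b (0.886), the bipolar marker Pcp2 (0.858) and C1ql1 (0.798), and most like Gfap were Syt7 (0.872), Timp2 (0.872) and Stac2 (0.866).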

How the data were processed

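RNA of 5 tissues in dark and light was hybridised to 20 Affymetrix arrays as biotinylated cRNA made by the 2-cycle method, per the labels' protocols. The authors processed the arrays with GCRMA, per the submitters' processing notes; its version is not given in the sources used here. What was deposited is 1 intensity per probe set and array; its linear scale was read from the values. They were set to a floor of 8, under which 11.3% to 14.1% of an array lay, and log2 was taken. Of 35557 probe sets 21789 have 1 gene symbol in the platform table; a gene is its brightest probe set, of those with log2 over 5 on at least 2 arrays.

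One limma fit (limma 3.58.1, R 4.3.3) held a mean for each of the 10 groups, with 10 residual degrees of freedom and a trend by intensity. Two-sided p-values were adjusted by Benjamini-Hochberg over 15057 genes within a comparison, with a threshold of 0.05. The script was tested on simulated data. Precision is limited by the number of arrays.

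The 10 genes, the lists and the attention to the inner plexiform layer were chosen with earlier results of these data known. Named beside the 10 are up to 4 genes per list with the smallest p among those past the threshold, otherwise the 2 brightest, marker genes, and the 3 most alike in pattern of 5 of the 10; a few further called list members were named after their values were seen. The alternatives were centring on medians, quantile normalisation, other filters on dim probe sets (none, or log2 over 7), a floor of 16, log2 of intensity plus 16, averaging a gene's probe sets, no trend, the replicate number as a block, only the arrays of a comparison, leaving out the arrays with Y-linked signal, leaving out both inner plexiform layer arrays in light, and leaving out each array in turn. Pairs of layers within dark or light alone were added after seeing the data.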

Additional observations from a re-analysis of the deposited data

Results flagged for a closer look

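The dark-minus-light difference of Rlbp1 was larger in the inner plexiform layer than in the mean of the photoreceptor, inner nuclear and ganglion cell layers. It exceeded that mean by 1.48 ± 0.27 on the log2 scale (adjusted p = 0.039, limma). Its difference was 1.40 in the inner plexiform layer, and -0.12, 0.20 and -0.32 in the other 3. Both dark-adapted inner plexiform layer arrays read above both light-adapted ones. The call ended in 12 of 20 fits that left out 1 array, and with only the arrays of the 4 layers the adjusted p was 0.068. Set against each other tissue in turn, no pair passed for Rlbp1, the nearest having adjusted p = 0.079. The light-adapted inner plexiform layer values lie near background. Both of those arrays stand apart over all genes, with median correlations of 0.738 and 0.768 with arrays of other groups. In the other 3 layers only light-adapted arrays had Y-linked signal. The part of either in this difference was not tested.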

How the results depend on the processing

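No direction of a called result was reversed under any alternative run. With the replicate number as a block, 3 of 10 genes passed in dark against light in the inner plexiform layer in place of 1 (Vim with adjusted p = 0.022 and Abca8a with 0.044 joined Rlbp1), 2 in the interaction in place of 1 (Vim, 0.049), 4 in the inner nuclear layer in place of 2 and 2 in the ganglion cell layer in place of 1. The labels do not say that a number marks a shared batch. Same-numbered dark and light arrays of a tissue deviated together at correlations of 0.114 to 0.344. Over all 45 pairs of groups these correlations ran from 0.006 to 0.479. None was below 0, so arrays of the same number may share a factor that the main fit leaves out. With only 2 arrays per group the block is kept as an alternative. With only the arrays of a comparison in the fit, 0 of 10 passed in the inner plexiform layer in dark against light and 0 in the interaction. The inner nuclear layer's 2 became 1 with no filter, with log2 of intensity plus 16 and with the arrays of Y-linked signal left out. Leaving those out, the inner plexiform layer's 2 became 1, the ganglion cell layer's 1 became 0 and the 24 gene-by-pair calls became 14, with fewer arrays in each. Those calls were 14 within the dark-adapted and 8 within the light-adapted arrays, a split chosen after seeing the data and given without the share of all genes. When each array was left out in turn, counts ran from 0 to 2 for dark against light in the inner plexiform layer, 0 to 0 in the other 4 tissues, 0 to 0 for the mean of 5 tissues, 0 to 1 for the interaction, 7 to 8 for the photoreceptor, 1 to 3 for the inner nuclear, 1 to 3 for the inner plexiform and 1 to 2 for the ganglion cell layer, 19 to 25 for the pairs and 3 to 6 for the whole retina. Quantile normalisation, median centring, a floor of 16 and no trend moved none of these counts by over 1.5 times. Without the arrays with Y-linked signal no light-adapted ganglion cell layer array is left, so the interaction and the mean of 5 tissues have no value. The filter at log2 over 7 kept 7 of the 10 genes, and in the inner nuclear layer Abca8a lost its call (adjusted p = 0.051) while Apoe gained one (0.029). The 2 arrays a group, and signal near background for Aqp4, Gfap, Vim, Abca8a and the lower values of Rlbp1, limit what differences can be seen.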

Other observations

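Gfap was higher in replicate 1 than in replicate 2 in 10 of 10 groups, with a median difference of -0.58 on the log2 scale (replicate 2 minus replicate 1), as were 0.97% of all genes. Glul was higher in replicate 2 in 9 of 10 groups, which holds in at least 9 groups for 6.92% of all genes. Dkk3, Vim and Aqp4 were higher in replicate 2 in 8 of 10 groups, for which the share of all genes was not counted. The labels do not say what a replicate number stands for.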
